A study of Mus musculus with 4 samples.

Results

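The immunoglobulin heavy chain (Igh), immunoglobulin kappa (Igk), immunoglobulin lambda (Igl) and T-cell receptor alpha and delta (Tcra) loci were examined in exome variant calls of mouse leukaemia cells. The loci were set by mm10 coordinates: Igh at chr12:113200000-116100000, Igk at chr6:67500000-70800000, Igl at chr16:19000000-19300000 and Tcra, which also holds the delta segments, at chr14:52400000-54300000. A variant was retained when 2 callers, SpeedSeq and VarScan2, gave the same position and alleles with 10 or more reads, 3 or more of them variant, at an allele fraction from 0.1 upward, and SpeedSeq gave a quality score of at least 20. The 8.4 Mb of the 4 loci held 19 retained variant sites, 12 single-nucleotide variants (SNVs) and 7 insertions or deletions (indels), of 59133 retained sites in all. These sites gave 20 SNV calls and 12 indel calls over the 4 samples.

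Each of the 4 samples was genomic DNA of c-Kit+ leukaemia cells from the bone marrow of a moribund mouse on a C57BL/6 background with the genotype label E2-KO, which the series title resolves as Nras-G12D together with Ezh2 KO. All 4 carry both alleles, so the set has 1 group, with no control genotype and no normal tissue of the same animals, and no variant is called somatic here. No label numbers the animals. Replicates are therefore numbered 1 to 4 in accession order. P-values over all 4 samples reflect their spread, part of which may be technical. Those between 2 samples reflect read counts alone. The promoter or Cre that removed Ezh2 and the age of the mice were not stated in the labels used here.

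Antigen receptor loci are arrays of short variable (V), diversity (D) and joining (J) segments followed by constant (C) genes. In developing lymphocytes the Rag1 and Rag2 recombinase joins 1 segment of each kind and removes or inverts the DNA between them, whereas myeloid cells usually keep the array in its inherited order. The V segments arose by repeated duplication, many are near-identical copies of each other, and short reads from them can be placed on more than 1 copy. A list of variant calls gives bases that differ from the reference but not the joins themselves, so rearrangement was not measured.

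All 7 indels lay in repeats, and the reference sequence of 5 of them is shown because the repeat is what these calls share. Each is written 5′ to 3′ on the plus strand of mm10 as the deposited SpeedSeq calls give it, with the repeat in capitals and the flanking bases in lower case.
Igkv4-91, chr6:68768879-68768921: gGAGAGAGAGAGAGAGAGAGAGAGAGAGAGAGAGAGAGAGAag
Igkv4-78, chr6:69060082-69060101: cAAAAAAAAAAAAAAActgt
Traj49, chr14:54168750-54168777: tAAAAAAAAAAAAAAAAAAAAAtctgtc
Traj16, chr14:54203048-54203081: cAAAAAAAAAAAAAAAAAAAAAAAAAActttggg
Ighd1-1, chr12:113485899-113485916: aTTTTTTTTTTTTctggc

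The first of these, inside the kappa V segment Igkv4-91, is a run of 40 bases of the repeated unit GA from which 2 bases were missing. The other 4 are runs of a single base, 15 bases long in Igkv4-78, 21 beside Traj49, 26 beside Traj16 and 12 near Ighd1-1. Among all 7 indel sites the run was 12 to 71 bases long, 5 changed by 1 base and 2 by 2 bases, and none changed by 10 bases or more. Every one of the 7 sites lay in a run of at least 10 bases, against 46.4% of all 7149 retained indel sites.

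The loci held few retained variants in any sample. Replicates 1 to 4 had 6, 5, 6 and 3 SNVs (mean 5 ± 1.41, SD, n = 4) and 3, 4, 3 and 2 indels (mean 3 ± 0.816). The whole files held between 24411 retained variants in replicate 4 and 37838 in replicate 1, with a median depth at SNVs of 46 to 55 reads. SpeedSeq listed 218, 129, 46 and 33 variants in the loci at any depth, and 75.8% to 94.5% of these had under 10 reads. A further 43 calls at 29 sites met the thresholds in 1 caller only, 6 SNVs and 3 indels in SpeedSeq and 11 SNVs and 23 indels in VarScan2. Some of these 29 sites were retained in another replicate and are already among the retained sites. The files list variants only and give no depth at other bases, so a stretch without a call may be reference sequence or may not have been read, and these cannot be told apart.

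By locus, Igh had 2, 2, 3 and 2 SNVs in replicates 1 to 4 (mean 2.25 ± 0.5). Igk had 4, 1, 1 and 0 (mean 1.5 ± 1.73), Igl had 0, 0, 1 and 0, and Tcra had 0, 2, 1 and 1 (mean 1 ± 0.816). Of the 4 loci only Igh had a retained SNV in every replicate. Per Mb the means came to 0.776 in Igh, 0.455 in Igk, 0.833 in Igl and 0.526 in Tcra.

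The counts were set beside those of other stretches of the autosomes and chromosome X that had the same length and any listed call. The bases read in each stretch are not known and were not matched. Among 898 windows of the length of Igh the median was 1 SNV in each replicate, and 63.5% to 68.8% of the windows had as many SNVs as Igh or fewer. For Igk this share ran from 46.8% in replicate 4 to 66.2% in replicate 1 of 807 windows, and for Tcra from 55.9% to 72.5% of 1374. Window means were far above the medians, 23.9 to 38.1 SNVs at the length of Igh, since single windows held up to 1719 SNVs. At the length of Igl, where the median of 8562 windows was 0, 82.8% to 87.2% had as many SNVs as Igl or fewer. Igl itself had 0 SNVs in replicates 1, 2 and 4, so there the share is only that of windows that also had 0. The same holds for Igk in replicate 4 and Tcra in replicate 1.

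No 2 Mb bin of the 4 loci reached 10 SNVs, the count used here for a dense bin. The nearest dense bin below Tcra ended 0.4 Mb from it and held 106, 140, 98 and 124 SNVs in replicates 1 to 4. Below Igh a dense bin ended 7.2 Mb away in replicates 1, 2 and 4, with 185, 199 and 171 SNVs. In replicate 3 the nearest dense bin below Igh lay 23.2 Mb away and held 46 SNVs. Igk was at least 7.5 Mb and Igl at least 12.7 Mb from a dense bin in every replicate.

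3 other immune loci served for comparison. The T-cell receptor beta locus held 6, 6, 4 and 6 SNVs in replicates 1 to 4 (7.97 per Mb), and the major histocompatibility region 34, 31, 28 and 30 (9.04 per Mb). The T-cell receptor gamma locus held 45, 0, 48 and 46 SNVs (183 per Mb). Every replicate was thus above each of Igh, Igk and Tcra per Mb in T-cell receptor beta and the major histocompatibility region, while T-cell receptor gamma split the replicates, with none in replicate 2. The difference between loci was not tested, since a locus is 1 stretch of DNA. Densities are per Mb of coordinates, and how many bases of each locus were read is not known.

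**Figure D1:**
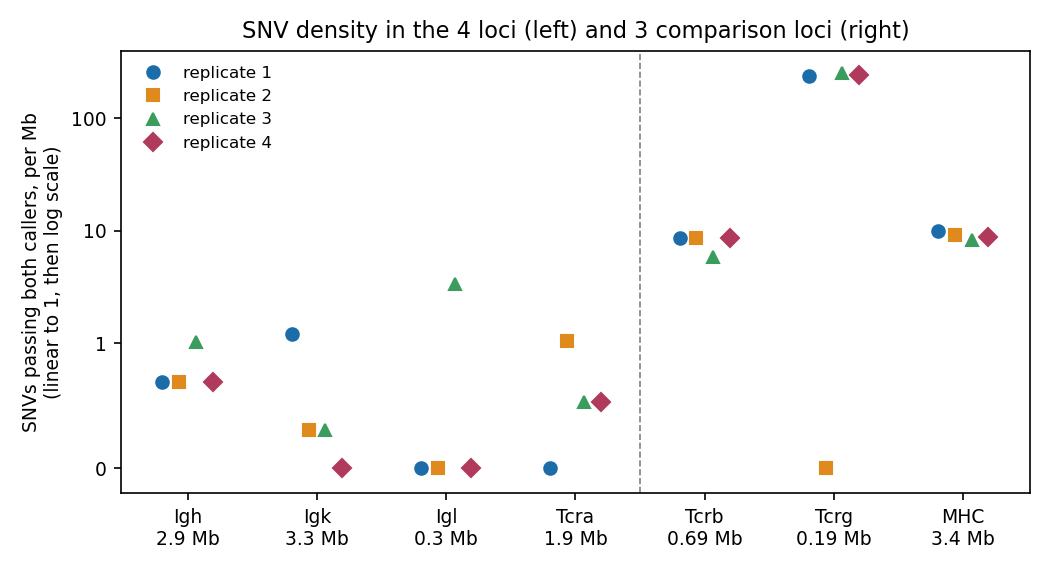
SNVs retained by both callers per Mb (y axis, linear up to 1 and logarithmic above) in the 4 loci at the left of the dashed line and in 3 comparison loci at its right, with 1 marker for each replicate and the length of each locus under its name. The T-cell receptor beta and major histocompatibility markers all sit above those of Igh, Igk and Tcra, and T-cell receptor gamma has 0 SNVs in replicate 2 and 45 to 48 in the others.

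Within the loci, 598 receptor segments and C genes were placed from the RefSeq gene table of the same build, and 4 of them held a retained variant: Ighv1-69, Igkv4-91, Igkv4-78 and Trav7d-6, all V segments. None of the 140 V pseudogenes, 12 D segments or 65 J segments held one. Of 345 V segments, 2 held a retained SNV (0.58%), whereas 127 of 1110 olfactory receptor genes, another family of short genes in clusters, did so (11.4%). The median length was 472 bases for the V segments and 950 for the olfactory receptor genes, and coverage of the 2 families was not compared.

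The C genes carry the effector part of an antibody or the membrane anchor of a receptor, and no retained variant fell in any of them. This held for Ighm, Ighd, Ighg1, Ighg2b, Ighg2c, Ighg3, Ighe, Igha, Igkc, Iglc1, Iglc2, Iglc3, Trac and Trdc and for the pseudogene Iglc4, 15 in all. Calls outside the rule were listed in 2 of the 15, Ighe and Trdc. In Trdc, the delta chain C gene, a 2-base deletion was listed in replicate 1 with 4 of 7 reads in SpeedSeq and 4 variant and 12 reference reads in VarScan2. None of the 102 neighbouring genes in the ranges, 15 of them protein-coding, held a retained variant, and 19 had a listed call of any depth.

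13 of the 19 sites were inside a segment or within 300 bases of one. By number of samples, 12 sites were retained in 1 replicate, 4 in 2, none in 3 and 3 in all 4. Of the 12 SNV sites 2 were retained in all 4 replicates, against 18.5% of all 51984 SNV sites, and 8 in 1 replicate only, against 32.5%. Most of these 8 lay in the single kappa cluster described below. Among the 8 only the site near Iglc4 was not listed in any other replicate. Whether a site was in an exon, intron or leader was not determined, because the gene table gives starts and ends only.

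**Figure D2:**
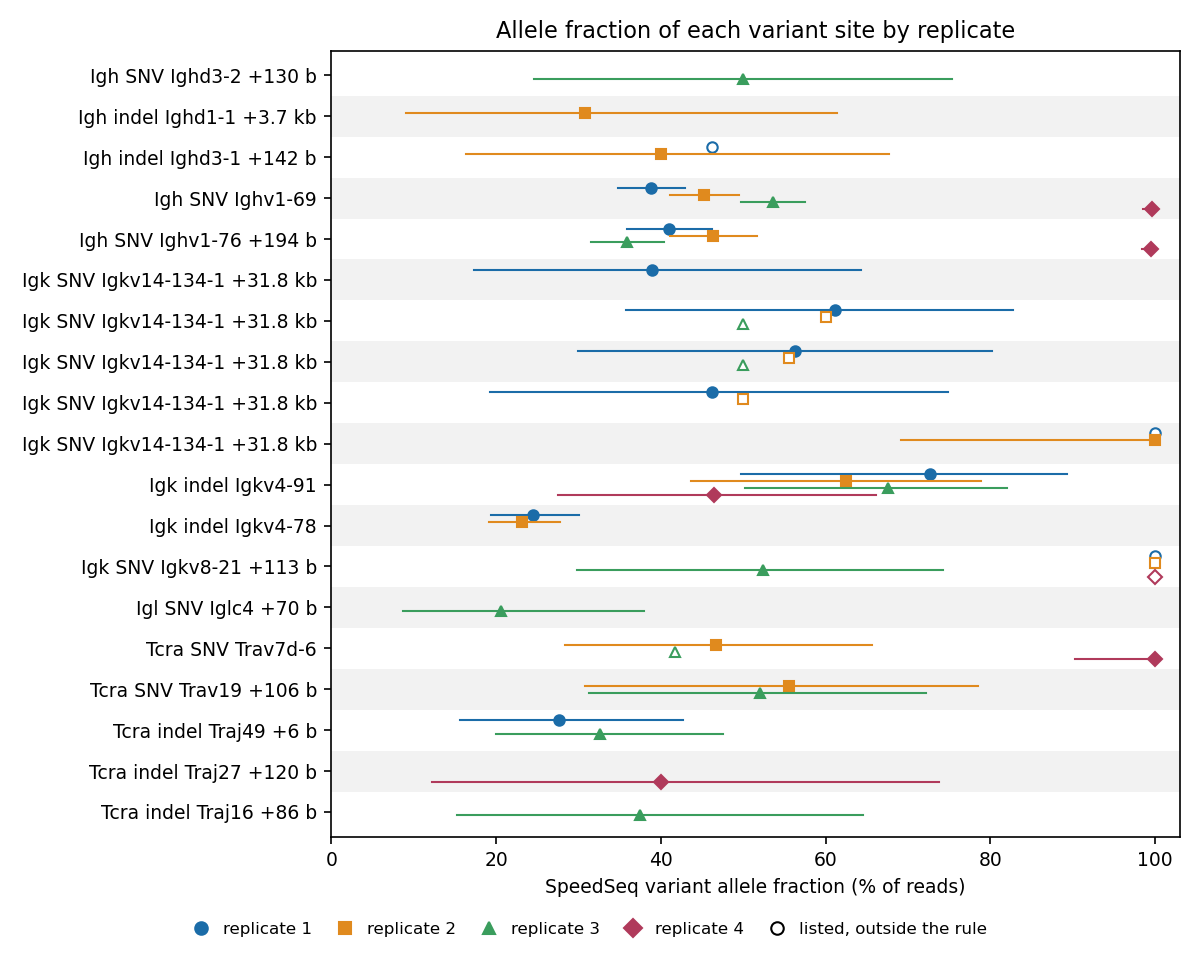
SpeedSeq variant allele fraction (x axis, percent of reads) at each of the 19 sites, 1 row per site named by its nearest segment and its distance from it. Filled markers are retained calls with their exact 95% intervals as lines, and open markers are calls listed by SpeedSeq outside the rule. Calls listed by VarScan2 alone are not drawn. Colour and shape give the replicate. At the 2 Igh sites retained in all samples replicate 4 lies at 99.6% and 99.5%, while replicates 1 to 3 lie between 35.9% and 53.6%.

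The heavy chain locus held the most deeply read calls of the set. Inside Ighv1-69, a heavy chain V segment at chr12:115623203-115623595, the change A>C at chr12:115623253 was retained in all 4 replicates. Replicate 1 had an allele fraction of 38.8% (223 of 575 reads, exact Clopper-Pearson 95% interval 34.8 to 42.9), replicate 2 of 45.3% (259 of 572), replicate 3 of 53.6% (347 of 647, 49.7 to 57.5) and replicate 4 of 99.6% (488 of 490). Replicate 4 stood far above the other 3, whose reads were split between both alleles. All intervals reflect counting error alone, and they may be too narrow because a molecule can be read more than once.

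At chr12:115848368, 225.1 kb further along and 194 bases from the V segment Ighv1-76, the change G>A showed the same split. Replicate 1 had 41.0% (148 of 361 reads), replicate 2 had 46.4% (166 of 358), replicate 3 had 35.9% (170 of 474, 31.5 to 40.4) and replicate 4 had 99.5% (436 of 438). Replicate 3 was highest of replicates 1 to 3 at Ighv1-69 and lowest here, and its 2 intervals did not overlap.

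Both sites were covered far beyond their samples' median, 8.91 to 12.4 times at Ighv1-69 and 6.94 to 8.62 times near Ighv1-76. Mapping quality separated them. At Ighv1-69 the variant reads had a mean mapping quality of 31.6 to 32.8 and the reference reads 51.5 to 54.1. Near Ighv1-76 the variant reads had 53.0 to 54.0. There the reverse strand held 124 of 148, 150 of 166, 149 of 170 and 379 of 436 variant reads in replicates 1 to 4. At Ighv1-69 it held 133 of 223, 164 of 259, 198 of 347 and 304 of 488. Whether reads of other V segments take part in either fraction was not tested. With variant reads required to have a mean mapping quality of at least 50, Ighv1-69 was lost and the Igh mean went from 2.25 to 1.25 SNVs.

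The third SNV of Igh, C>G at chr12:113448084, lay 130 bases from the D segment Ighd3-2. It was retained in replicate 3 alone, at 50% (8 of 16 reads), and VarScan2 listed it in the other replicates with 4, 5 and 5 variant reads. SpeedSeq listed a 2-base deletion at the same place in replicate 2 (4 of 15 reads). Both Igh indels were seen in replicate 2: a 1-base insertion 3707 bases from Ighd1-1 (4 of 13 reads), listed in no other replicate, and a 2-base deletion 142 bases from Ighd3-1 (6 of 15), also listed in replicates 1 and 4. Each of these D-region calls rested on at most 16 SpeedSeq reads.

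Allele fractions were compared between samples site by site with Fisher's exact test on reference and variant reads, two-sided, with Benjamini-Hochberg adjustment over all sites retained in both samples of a pair. These tests compare 2 libraries and not conditions. They treat each read as an independent molecule, which it need not be, so their p-values may be too small. In the loci 22 comparisons could be made over the 6 pairs, and 10 passed at an adjusted p of 0.05. Of the sites tested, 0 of 4 passed between replicates 1 and 2 (13.9% of all sites), 1 of 4 between 1 and 3 (32.1%), 2 of 3 between 1 and 4 (31.8%), 2 of 4 between 2 and 3 (35.3%), 3 of 4 between 2 and 4 (34.3%) and 2 of 3 between 3 and 4 (48.3%). With so few sites in a pair these counts say little about the loci as a group. For replicates 1 and 2, where 0 passed, 1 of the 4 sites, Ighv1-69, had an unadjusted p of 0.0359 in the exact test.

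The calls came from 3 sites. At Ighv1-69 replicate 4 exceeded replicates 1, 2 and 3 by 60.8, 54.3 and 46.0 percentage points (Fisher's exact test, adjusted p = 4.90e-118, 8.45e-101 and 1.04e-84). Near Ighv1-76 it exceeded them by 58.5, 53.2 and 63.7 points (same exact test, adjusted p = 3.07e-92, 1.19e-80 and 6.77e-115). Between replicates 2 and 3 the sites differed in opposite directions: replicate 3 was 8.35 points higher at Ighv1-69 (exact test, adjusted p = 0.0139) and lower near Ighv1-76, with a difference of -10.5 points (adjusted p = 0.00963). Replicate 3 was also 14.8 points above replicate 1 at Ighv1-69 (exact test, adjusted p = 3.42e-06), but near Ighv1-76 the same pair did not pass (-5.13 points, adjusted p = 0.3004). Replicates 1 and 2 passed at neither site (exact test, adjusted p = 0.205 and 0.569). Without calls of mapping quality under 50, Ighv1-69 and Trav7d-6 were no longer tested and 4 comparisons passed.

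Igk held 6 SNV sites, and 5 of them lay close together in 1 place. At chr6:67679379, chr6:67679380, chr6:67679390 and chr6:67679400, all within 22 bases and about 31.8 kb from the V pseudogene Igkv14-134-1, replicate 1 had the changes C>T, T>C, G>A and A>T with 7 of 18, 11 of 18, 9 of 16 and 6 of 13 variant reads. The fifth, T>C at chr6:67679416, was retained in replicate 2 with 10 of 10 reads, and replicate 1 listed it with 9 of 9. At the adjacent pair of positions the reads swapped sides: 11 reference and 7 variant reads at the lower position, 7 reference and 11 variant at the next. The mean mapping qualities swapped with them, 31.4 and 38.0 for reference and variant reads, then 38.0 and 31.4.

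The surrounding stretch, chr6:67670000-67700000, held 58, 55, 11 and 2 listed calls in replicates 1 to 4. These were 47.2%, 65.5%, 52.4% and 12.5% of everything listed in Igk, at a median depth of 2 to 4 reads. The 4 retained Igk SNVs of replicate 1 thus came from a single thinly read cluster, and without that replicate the Igk mean fell to 0.667. At a minimum depth of 20 in both callers no Igk SNV was left.

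The remaining SNV site of Igk, T>A at chr6:70314782, lay 113 bases from the V segment Igkv8-21. In replicate 3 both callers retained it at 52.4% (11 of 21 reads in SpeedSeq). In replicates 1, 2 and 4 SpeedSeq gave 15 of 15, 18 of 18 and 18 of 18 variant reads, and VarScan2 did not list the site. The fraction was therefore highest in the 3 samples where the callers disagreed, and all variant reads of the 4 samples but 1 were on the forward strand.

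The kappa indels were the more widely shared. The 2-base deletion in the GA run of Igkv4-91 was the only indel retained in all 4 replicates, at 72.7%, 62.5%, 67.6% and 46.4% of SpeedSeq reads (16 of 22, 20 of 32, 25 of 37 and 13 of 28). VarScan2 gave 37.8%, 46.5%, 54.2% and 39.5%. The callers counted different reference reads, 2 in every replicate for SpeedSeq and 22 or 23 for VarScan2. Fisher's exact test on the SpeedSeq reference and variant reads passed in none of the 6 pairs (adjusted p between 0.750 and 1). With 2 reference reads in every replicate and the reads of neither allele left out, it does not compare the fractions of depth given above. The 1-base insertion in the A run of Igkv4-78 was retained in replicates 1 and 2, at 24.4% (64 of 262 reads) and 23.2% (90 of 388), and was listed in neither of the others. The test between these 2 samples did not pass (adjusted p = 1 in the exact test). It set 134 reference and 64 variant reads of replicate 1 against 187 and 90 of replicate 2. Reads of neither allele were left out, so here too the fractions of depth were not compared.

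Igl held 1 retained variant. The change G>C at chr16:19195382, 70 bases from the pseudogene Iglc4, made up 20.6% of reads in replicate 3 (7 of 34, interval 8.70 to 37.9) and was listed by neither caller in the other samples. All 7 variant reads were on the reverse strand. It was the only SNV call of the loci private to 1 replicate, 1 of 20 against 8.79% of all SNV calls, and its fraction sat just above the 20% below which VarScan2 lists nothing. Of the 12 indel calls 2 were private, those at Ighd1-1 and Traj16, against 12.8%.

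In Tcra the callers disagreed most at Trav7d-6, an alpha chain V segment at chr14:53020459-53020991. At chr14:53020527 SpeedSeq gave the change C>T in 14 of 30 reads in replicate 2, 15 of 36 in replicate 3 and 36 of 36 in replicate 4, and did not list it in replicate 1. VarScan2 gave 90 of 181 reads (49.7%) in replicate 1, 55 of 234 (23.5%) in replicate 2 and 130 of 272 (47.8%) in replicate 4, and did not list it in replicate 3. The site was therefore retained in replicates 2 and 4. Between these SpeedSeq read 46.7% and 100% (Fisher's exact test, adjusted p = 7.76e-07), while VarScan2 gave a lower fraction in both.

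The same base of a copy of this segment was also listed. Trav7n-6 lies 304217 bases further along, has the same length of 533 bases, and VarScan2 listed C>T at base 69 of both segments, counted from the lower coordinate. In Trav7n-6 it had 76 variant and 122 reference reads in replicate 1 (38.4%) and 114 and 151 in replicate 4 (43.0%), and SpeedSeq listed nothing there. Another such pair, Trav5d-4 and Trav5n-4, carried VarScan2 indels at base 189 of 519 in both: a 1-base insertion in Trav5d-4 in replicates 1 and 3 (40.9% and 26.9%) and a 1-base deletion in Trav5n-4 in replicates 1 and 4 (31.3% and 33.3%). Which copy such reads come from was not tested.

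The other Tcra sites had shallower support. A>G at chr14:53845933, 106 bases from the V segment Trav19, was retained in replicate 2 (10 of 18 reads, 55.6%) and replicate 3 (13 of 25, 52%) and listed in neither of the others, with all variant reads on the reverse strand. The 1-base deletion in the A run 6 bases from the J segment Traj49 was retained in replicate 1 (13 of 47 reads, 27.7%) and replicate 3 (16 of 49, 32.7%). Neither site passed the test between its 2 samples (adjusted p = 1 and 0.287, Fisher's exact test). For Traj49 the test set 23 reference and 13 variant reads of replicate 1 against 13 and 16 of replicate 3. It left out reads of neither allele and so does not compare the fractions of depth given above. A 1-base deletion 120 bases from Traj27 was retained in replicate 4 (4 of 10 reads) and listed in replicate 2, and a 1-base insertion 86 bases from Traj16 was found in replicate 3 alone (6 of 16).

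**Figure D3:**
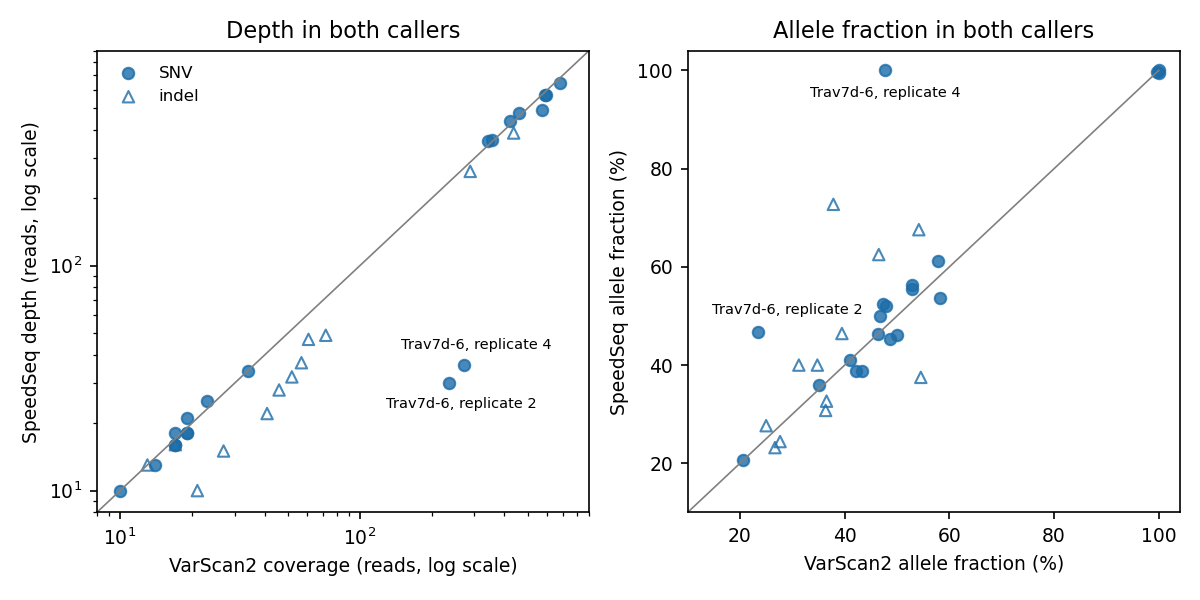
Depth (left, both axes logarithmic) and allele fraction in percent (right) of the 32 retained calls, with VarScan2 on the x axis and SpeedSeq on the y axis; filled circles are SNVs, open triangles indels, and the grey line marks equal values. The 2 Trav7d-6 calls have 30 and 36 reads in SpeedSeq against 234 and 272 in VarScan2, while most other SNVs lie near the line.

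Features of the SNV calls were counted beside those of the whole genome, without a test. Of 20 calls, 11 had a mean mapping quality of variant reads under 50 (55%), against 18.9% of all 118863 SNV calls. They were the 4 at Ighv1-69, the 5 of the kappa cluster and the 2 at Trav7d-6. Variant reads on 1 strand only were seen in 6 of 20, against 15.6%. A SpeedSeq depth of at least 300 was reached by 8 of 20, all at the shared Igh sites, against 6.25%.

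At Trav7d-6, 2 of 20 calls had a SpeedSeq depth under 0.25 times the VarScan2 coverage, against 0.206% of all SNV calls. The callers were at least 25 percentage points apart in 1 of 20, against 0.994%. An allele fraction of 0.65 or more was found in 4 of 20 calls, against 30.2%. All 3 SNV calls of replicate 4 were among these 4, the other being the kappa site at 10 of 10 reads in replicate 2. Median fractions of Igh SNVs were 39.9%, 45.8%, 50% and 99.6% in replicates 1 to 4 (mean 58.8 ± 27.5, SD, n = 4). Those of Tcra were 51.1%, 52% and 100% in replicates 2 to 4, and those of Igk 51.2%, 100% and 52.4% in replicates 1 to 3. Since a few sites supply most of the calls in the 4 loci, none of the shares in them is independent of the others. A high median in replicate 4 was not particular to these loci. In T-cell receptor gamma the median fraction was 40% and 35.4% in replicates 1 and 3 and 100% in replicate 4. T-cell receptor beta had 48.2% in replicate 4, and the major histocompatibility region had 95.8% to 97.7% in all replicates.

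Agreement of the callers was compared with the rest of the genome over the 4 samples. Of the SNVs that passed in SpeedSeq, VarScan2 also listed 6 of 7, 6 of 7, 7 of 8 and 3 of 4 in the loci (85.7%, 85.7%, 87.5% and 75%), against 94.7%, 93.4%, 95.9% and 86.7% elsewhere. The difference was -9.20 ± 1.75 percentage points (SD, n = 4) and pointed the same way in all 4 samples (two-sided exact sign-flip permutation test, p = 0.125, adjusted p = 0.375 over 3 tests). With 16 sign patterns 0.125 is the smallest p that 4 samples can give, and in each replicate the share rests on 1 SNV that VarScan2 did not list, near Igkv8-21 in replicates 1, 2 and 4 and in Trav7d-6 in replicate 3. At a minimum depth of 20 its sign turned (1.86 points), and at a mapping quality of at least 50 it was -26.95 ± 20.999 points.

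Transitions, changes between A and G or between C and T, made up 4 of 6, 4 of 5, 2 of 6 and 2 of 3 SNVs. The share differed from the rest of the genome by -7.83 ± 20.6 points (exact sign-flip p = 0.625, adjusted p = 0.938, n = 4), lower in 3 of 4 samples. Median depth at the SNVs of the loci was 18, 30, 29.5 and 438 reads against 52, 46, 55 and 55 elsewhere. The mean log2 ratio was -0.01 ± 2.04 (exact sign-flip p = 1, adjusted p = 1, n = 4), with replicates 1 to 3 below and replicate 4 above the rest. Replicate 4 had 2 of its 3 SNVs at the deep Igh sites, and the log2 ratio without it was -1.02.

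Genes of V(D)J recombination and of the repair steps around it were read for 14 members of a list. SNVs were retained in 3 of them, against 17.7% of 21631 protein-coding genes, and any variant in 7, against 24.3%. The 14 genes had a median length of 40.2 kb and all protein-coding genes 17.3 kb, so the shares are not of equal lengths of DNA. Dntt, which adds bases at the joins, had 2, 0, 0 and 2 SNVs in replicates 1 to 4, at a median allele fraction of 28.6% in replicate 1 and 75.4% in replicate 4. Xrcc6, a Ku subunit that binds DNA ends, had 7, 9, 0 and 9, at 43.8%, 46.2% and 44.7%. Atm, the kinase that signals double-strand breaks, had 0, 2, 2 and 0, at 54.7% and 40.6%. Each of the 3 lacked SNVs in at least 1 replicate.

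Indels alone were retained in 4 more: Rag2, a recombinase subunit, in replicate 2, Lig4, the ligase of the joining step, in replicate 2, its partner Xrcc4 in replicates 1, 3 and 4, and Prkdc, the DNA-dependent kinase, in all 4. The other 7 had no retained variant: Rag1, Xrcc5, Nhej1, Dclre1c, Paxx, Hmgb1 and Ung. The effect of any of these variants on the protein was not determined.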

How the data were processed

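Whole exomes of 4 samples in 1 group were read as pairs of 100 bases, per the labels' protocols. The authors deposited per sample a SpeedSeq variant file (freeBayes 0.9.21 against mm10, per the file headers), whose quality column is a Phred-scaled score, and VarScan2 SNV and indel tables with read counts and a frequency in percent, per the file headers. Builds mm10 and GRCm38 are given per the submitters' processing notes. Not given in the sources used here are the aligner, the handling of duplicates and VarScan2's version. Tested on the files, VarScan2 lists nothing under 8 reads of coverage, 3 variant reads or 20%; SpeedSeq lists down to 2 reads.

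Equal-length block substitutions were split into SNVs. Allele fraction is variant reads over depth (SpeedSeq) or over reference plus variant reads (VarScan2). Exact Clopper-Pearson intervals (95%), Fisher's exact test per pair of samples and exact sign-flip tests used Python 3.11.15 and scipy 1.17.1; the Fisher script was tested on simulated data. Private means listed in 1 sample only, by either caller at any quality. Segments came from the RefSeq gene table of GRCm38. Named were all C genes, up to 5 segments per locus and 5 neighbouring genes with most retained sites, genes nearest a private variant, and indels of 10 bases or more; segments nearest a site were named as its landmark, and the copies Trav7n-6, Trav5d-4 and Trav5n-4 after their values were seen. Alternatives were a minimum depth of 20, a minimum fraction of 0.3, each caller alone, a mapping quality of 50, VarScan2 read counts and leaving out each replicate. The loci, the gene list and the comparison loci were chosen with earlier results of these data known. Part of the gene list is not reported here.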

Additional observations from a re-analysis of the deposited data

Results flagged for a closer look

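Of 17 quantities measured in all 4 samples, 7 had 1 sample farther from the rest than Dixon's 95% critical value for 4 samples. For measured quantities chance alone gives this about 1 time in 20. That rate does not hold for the 3 counts below, where 3 samples tie and any other value in the fourth stands apart, and several of the 7 share the same calls. Replicate 4 stood apart in 4: the median allele fraction of its Igh SNVs (99.57%), the fraction at the site near Ighv1-76 (99.54%), the median depth at SNVs of the loci (438 reads) and the agreement of the callers (75%). The last 2 rest on few SNVs, and the chance rate for them is not known. The depth is a median of 3 SNVs. The agreement is 3 of 4 SNVs, against 6 of 7, 6 of 7 and 7 of 8 in replicates 1 to 3. The comparison locus T-cell receptor gamma also had a median fraction of 100% in replicate 4, against 40% and 35.4% in replicates 1 and 3. Replicate 3 stood apart in its count of Igh SNVs (3) and of Igl SNVs (1), and replicate 2 in its count of Igh indels (2). The counts differ from the other samples by 1 or 2 variants.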

How the results depend on the processing

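Over 13 results, 111 alternative values were computed: 9 changed sign, 16 moved by more than the spread between samples or, for counts, by over 1.5 times, and 86 did neither, though some of these differed widely in size. At a minimum depth of 20 the Igk mean was 0 SNVs, the caller agreement difference 1.86 points and the log2 depth ratio 2.53; no Igk SNV was left for a median fraction. At a minimum fraction of 0.3 the Igl mean and the private SNVs were both 0 and the depth ratio 0.64. SpeedSeq alone gave a mean of 2.75 Igk SNVs. VarScan2 alone gave 2.5 Igk SNVs, 2 Tcra SNVs, 8.75 indels and 5 private SNVs. A mapping quality of at least 50 gave means of 1.25, 0.25 and 0.5 SNVs in Igh, Igk and Tcra, a transition difference of 12.8 points, a caller agreement difference of -26.95 points, a depth ratio of 1.79 and 4 differing pairs. Leaving out each replicate in turn gave 0.667 to 2 Igk SNVs (lowest without replicate 1), 0 to 0.333 Igl SNVs (lowest without replicate 3), 1 to 4 private SNVs (4 without replicate 2, 2 without replicate 1), a depth ratio of -1.02 to 0.49 and a transition difference of -13.98 to 2.02 points (highest without replicate 3). The causes were not tested. No paired analysis was possible because the samples form 1 group.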
